A study of Arabidopsis thaliana with 4 samples.

Results

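The regions described here were stretches of open chromatin that carried an ATAC-seq peak in both osmotically stressed Arabidopsis root libraries and in neither control library. Peaks from all 4 libraries that shared 1 base or more were joined into 27679 merged regions. Of these, 1124 regions (4.06%) had a peak in both stress libraries only. Peak presence chose the regions, so their presence in stress and absence in control is a description and was not tested. Another 18340 regions had a peak in all 4 libraries and are called shared regions, 3527 lacked a peak in control replicate 1 alone, and 229 had a peak in both control libraries only.

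The libraries came from Arabidopsis thaliana Col-0 root tips of 5 mm, grown on plain medium (control, 2 libraries) or on the same medium with sorbitol (osmotic stress, 2 libraries). Nuclei were profiled with the 10x Genomics multiome assay, in which a transposase cuts accessible DNA and RNA is captured from the same nucleus, and each library was loaded with 15000 nuclei. All plants were wild type, so the groups differed by the medium as far as the labels state. The libraries held 19858 to 25001 peaks, 47853119 to 75473335 cut sites in peaks and 6069 to 15302 called nuclei, with control replicate 1 lowest in each. Called nuclei are barcodes within count limits, and stress replicate 1 had more of them, 15302, than the 15000 nuclei loaded. A called barcode therefore need not be a single loaded nucleus, and counts of nuclei here are counts of such barcodes. Pairs of libraries shared 124 to 342 barcodes of called nuclei, 2.04% to 2.35% of the smaller library of each pair. Of 283 marker genes of 13 root cell types, 114 (40.3%) had a shared region, against 41.1% of all annotated and 50.5% of protein-coding genes, so the presence of peaks did not check the root label. The gene rows of the deposited matrices carry no gene names, so RNA levels were not used here.

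Accessible chromatin marks DNA from which nucleosomes have been displaced, most often the promoter just upstream of a gene and, less often, enhancers and gene bodies. When water is withdrawn from a root, abscisic acid (ABA) accumulates. ABA receptors of the PYR/PYL family then inhibit PP2C phosphatases, SnRK2 kinases are released, and basic leucine zipper factors bind ABA response elements (ABRE) in promoters, while DREB factors bind dehydration response elements through a partly separate route. In plants a peak therefore often lies where such factors can bind, although accessibility does not say which factor is present.

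The following sequences are shown because they come from the regions at the top of the results: the region with the highest level (AT3G13310), the pair of strong regions that lay far from any control peak (RAP2.4 and AT2G48030), the highest region of a listed stress gene (WRKY11) and the regions upstream of markers of cell identity (GL2 and WOX5). Each is a window of 200 bases without exon bases, read 5′ to 3′ on the strand of its gene from RefSeq TAIR10.1. Capitals mark matches, on either strand, to the motifs searched: ABRE (ACGTGGC), its core (ACGTG), the G-box (CACGTG), the DRE core (CCGAC), the W-box (TTGACC), the GCC-box (GCCGCC), the auxin response element (TGTCTC), the telobox (AAACCCT), site II (TGGGCC), the evening element core (AATATCT), the E2F core (TTCCCGC) and a TATA-like box (TATAAA). A G-box always contains the ABRE core.
AT3G13310: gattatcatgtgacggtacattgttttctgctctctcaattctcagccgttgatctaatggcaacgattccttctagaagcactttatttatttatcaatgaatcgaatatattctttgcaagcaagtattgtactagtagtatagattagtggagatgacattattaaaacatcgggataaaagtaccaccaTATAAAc
RAP2.4: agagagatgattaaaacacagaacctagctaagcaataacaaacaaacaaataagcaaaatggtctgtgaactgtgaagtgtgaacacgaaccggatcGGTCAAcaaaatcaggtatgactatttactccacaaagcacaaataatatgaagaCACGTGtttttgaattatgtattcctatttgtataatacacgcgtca
AT2G48030: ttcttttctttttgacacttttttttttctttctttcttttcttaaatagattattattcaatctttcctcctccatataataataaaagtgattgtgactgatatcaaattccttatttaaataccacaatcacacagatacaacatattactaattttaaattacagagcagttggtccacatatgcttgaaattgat
WRKY11: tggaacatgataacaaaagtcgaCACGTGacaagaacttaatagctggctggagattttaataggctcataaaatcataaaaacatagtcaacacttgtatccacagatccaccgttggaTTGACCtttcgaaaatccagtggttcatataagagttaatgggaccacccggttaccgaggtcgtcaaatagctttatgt
GL2: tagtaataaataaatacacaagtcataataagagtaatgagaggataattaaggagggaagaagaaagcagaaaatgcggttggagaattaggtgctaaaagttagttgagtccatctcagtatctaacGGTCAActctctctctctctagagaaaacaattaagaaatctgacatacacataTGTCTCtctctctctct
WOX5: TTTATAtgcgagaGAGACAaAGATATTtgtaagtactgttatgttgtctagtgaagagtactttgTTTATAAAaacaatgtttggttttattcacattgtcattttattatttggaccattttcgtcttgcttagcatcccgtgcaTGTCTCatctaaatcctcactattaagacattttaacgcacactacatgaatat

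The AT3G13310 window lay at chr3:4312167-4312366 on the minus strand, at positions -737 to -538 from the start of a gene for a DnaJ-domain chaperone, and held a TATA-like match alone. The RAP2.4 window lay at chr1:29362933-29363132 on the plus strand, at positions -1139 to -940 from the start of an AP2/ERF transcription factor gene, and held a W-box and a G-box. The AT2G48030 window, chr2:19650617-19650816 on the minus strand, began at position -503 from a gene for a DNase I-like protein and matched none of the motifs. The WRKY11 window, chr4:15292540-15292739 on the minus strand, began at position -805 from the start of a WRKY factor gene and held a G-box and a W-box, the motif that WRKY proteins bind. The GL2 window, chr1:30036524-30036723 on the plus strand, began at position -432 and held a W-box and an auxin response element. The WOX5 window, chr3:3525915-3526114 on the plus strand, began at position -1365 and held TATA-like matches, auxin response elements and an evening element core.

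In the stress libraries the regions were weak but repeatable peaks. Levels are given as CPM, the cut sites of called nuclei in a region per 1000000 cut sites of that library in its peaks. Across the 1124 regions, stress replicate 1 had 8.16 to 96.9 CPM with a median of 23.4, and stress replicate 2 had 8.82 to 92.3 CPM with a median of 23.4. The counts behind these levels were 551 to 6542 cut sites in stress replicate 1, median 1577.5, and 586 to 6126 in stress replicate 2, median 1554.5, from a median of 871.5 and 862.5 nuclei. The region with the fewest nuclei had 340 in stress replicate 1 and 333 in stress replicate 2, so none rested on a handful of barcodes.

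The stress libraries gave nearly the same level for most regions: 929 of the 1124 (82.7%) differed by no more than 10%. The log2 ratio of stress replicate 2 to stress replicate 1 ran from -0.85 to 1.11 with a median of -0.01, and the log2 levels had a Pearson correlation of 0.974 over 1124 regions, points that share their library and that were all chosen for having a peak in both. The lowest ratio was that of AT1G64700, which had 21.9 CPM in stress replicate 1 and 12.1 CPM in stress replicate 2. The highest was that of HHP1, with 11.8 and 25.6 CPM, so single regions differed between the stress libraries far more than most.

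**Figure D1:**
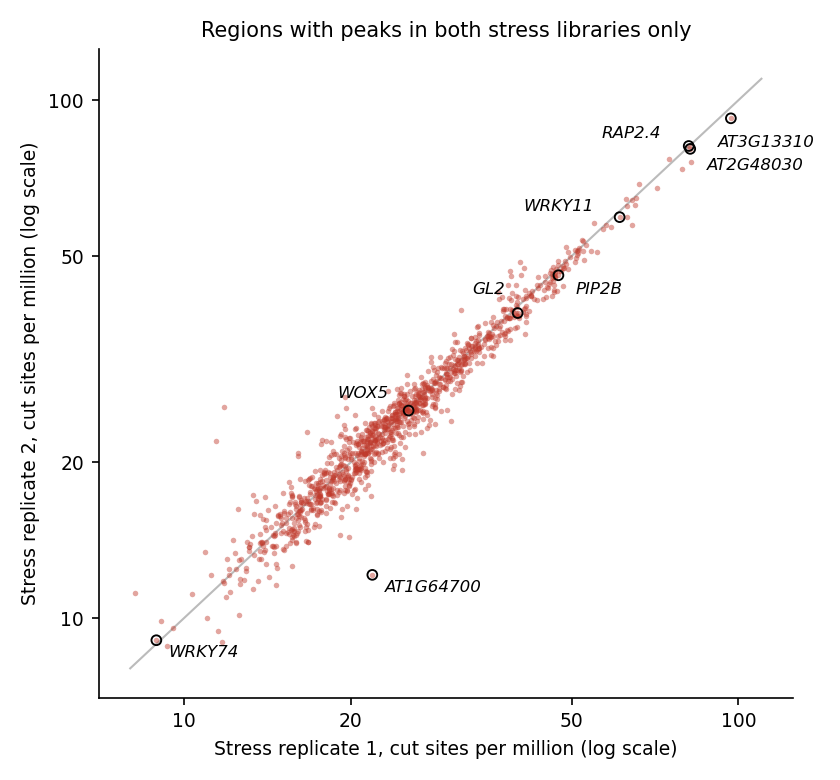
Level of each of the 1124 regions in stress replicate 1 (x axis) and stress replicate 2 (y axis), in CPM on log axes, 1 point per region. The points follow the line of equal levels from 8.16 to 96.9 CPM, with AT3G13310 at the top.

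Set beside the other peaks of the same libraries, the regions stood low. The median peak had 37.3 CPM in stress replicate 1 and 36.5 CPM in stress replicate 2, and 150 of the 1124 regions (13.3%) lay above it in each. The median region stood at the 14.3rd percentile of the peaks of stress replicate 1 and at the 16.5th of stress replicate 2. Below the level of the 10th percentile peak (21.2 and 20.4 CPM) lay 432 regions (38.4%) in stress replicate 1 and 380 (33.8%) in stress replicate 2. Together the regions took 2.91% and 2.89% of the cut sites in peaks. Shared regions had medians of 41.1 and 40.9 CPM in the stress libraries, and regions missing from control replicate 1 alone had 29.0 and 28.7 CPM. Regions with a peak in both control libraries only were low in the same way, with medians of 30.5 CPM in control replicate 1 and 24.7 CPM in control replicate 2.

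**Figure D2:**
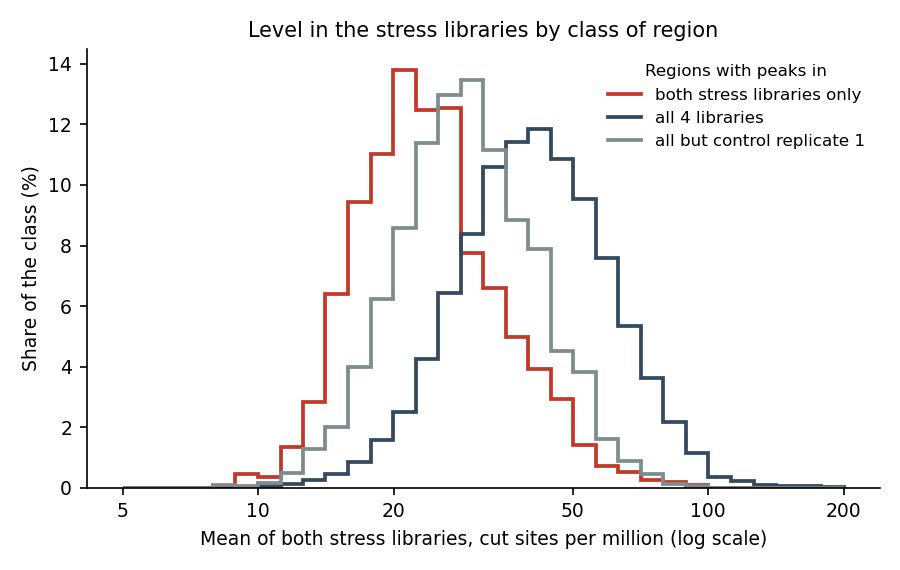
Mean level of both stress libraries in CPM (x axis, log scale) as the percentage of the regions of each class per bin (y axis), for regions with peaks in both stress libraries only, in all 4 libraries and in all but control replicate 1. The 1124 regions lie to the left, with a median of 23.2 CPM, and the shared regions to the right, with medians of 41.1 and 40.9 CPM in the stress libraries.

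The absence of a control peak is a call and not a level of 0. The deposited matrices count each library in its own peaks alone, so no fold change against control was computed for these regions. Peaks as weak as the median member (23.2 CPM) made up 4.24% of the peaks of control replicate 1 (842 peaks) and 13.8% of those of control replicate 2 (3355), against 14.0% and 16.0% in the stress libraries. With control replicate 2 left out, the same rule gave 4653 regions, and with control replicate 1 left out it gave 1341. With stress replicate 1 or stress replicate 2 left out it gave 2000 and 1759 regions. The count thus rested mainly on control replicate 2, the deeper control library, and the part of depth in it was not tested.

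At the edge of the rule, the regions just inside lay next to a control peak. The region of AT3G25610, chr3:9315150-9315715, ended 4 bases from a control peak at 34.1 and 35.1 CPM in stress replicates 1 and 2, and that of UBP24, a ubiquitin-specific protease gene, did so at 13.5 and 16.8 CPM. Just outside it, the region of CPNIFS, chr1:2690485-2691895, shared 44 bases with a peak of control replicate 1 of 42.4 CPM. The region of SUVH6, a histone methyltransferase gene, shared 129 bases with a peak of control replicate 2 of 19.98 CPM. Of the 1124 regions, 161 (14.3%) lay within 200 bases of a control peak, 533 (47.4%) within 1 kb, and 45 (4.00%) had none within 5 kb. The median gap was 1071.5 bases and the farthest was 24119 bases. Peaks of the stress libraries overlapped each other in every region, by 250 bases or more and by a median of 782.

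The regions were slightly narrower than shared ones and covered 897476 bases in all. Their widths ran from 338 to 1028 bases with a median of 830.5, against 901 for shared regions, 861 for regions missing from control replicate 1 alone and 845 for regions with control peaks only. GC content ran from 24.4% to 57.3% with a median of 34.5%, against 35.3%, 33.8% and 34.0% in those classes. One region matched an organelle genome and 2 occurred in more than 1 copy in the nuclear genome. Regions are not replicates, so these and the following shares are descriptions without a test.

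The regions sat away from gene starts more often than shared regions did. At a gene start, meaning 1 kb upstream to 200 bases downstream of it, lay 702 of the 1124 regions (62.5%), against 81.5% of shared regions, 69.3% of regions missing from control replicate 1 alone and 67.2% of regions with control peaks only. The start itself was covered by 458 regions (40.7%), against 67.7%, 49.6% and 41.5%. The median distance from region centre to nearest start was 687.5 bases, against 165, 434 and 585 bases. Farther than 2 kb from any start lay 191 regions (17.0%), against 8.89% of shared regions. Regions with control peaks only thus stood closer to the stress regions than shared regions did.

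**Figure D3:**
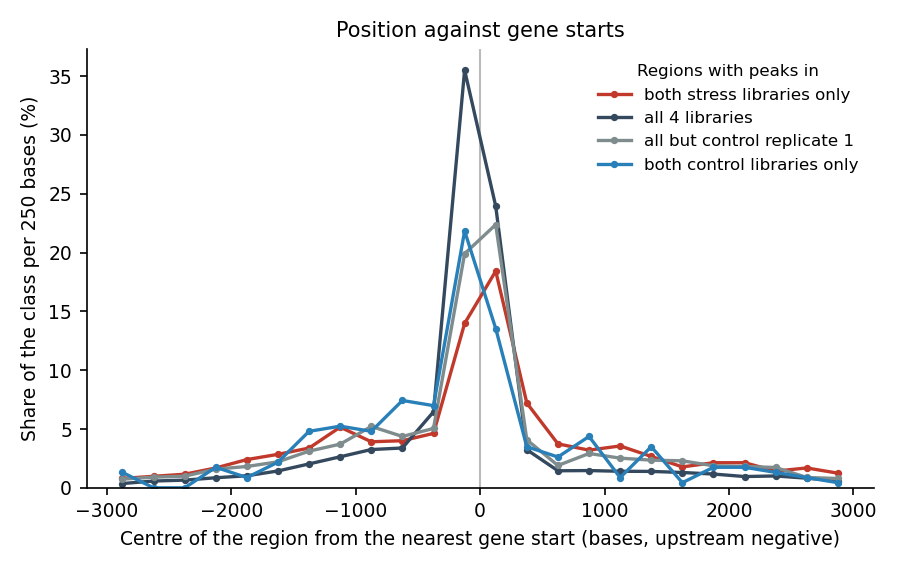
Distance of region centres from the nearest gene start, in bases (x axis, negative upstream), as the percentage of the regions of each class per bin (y axis). Shared regions pile up at the start, with 69.1% within 500 bases, while the 1124 regions are spread more widely, with 44.2% within 500 bases.

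Away from the starts, the regions lay inside genes as well as between them. Exons held 168 regions (14.9%), against 6.01% of shared regions, and introns held 52 (4.63%), against 1.5%. A further 92 regions (8.19%) lay 1 to 2 kb upstream of a gene, 57 (5.07%) within 1 kb downstream and 53 (4.72%) between genes. Exon regions had the highest GC content (median 38.5%) and intergenic ones the lowest (29.8%), while their levels were close, with medians of 22.3 and 24.4 CPM. No exon base at all was covered by 288 regions (25.6%). The nearest gene was protein-coding for 912 regions (81.1%), a long non-coding RNA for 62 (5.52%) and a pseudogene for 26 (2.31%), and 78 regions (6.94%) overlapped neither a gene body nor its 2 kb upstream. The 5 chromosomes held 314, 177, 199, 187 and 247 of the regions, which is 5.55 to 6.87 per 100 shared regions.

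Site II, a short promoter element of growth and ribosomal genes bound by TCP factors, was rarer in these regions than in shared ones. In the middle 300 bases it was matched in 78 regions (6.94%), against 27.4% of shared regions, 23.1% of regions with control peaks only and 21.4% of all merged regions. Regions missing from control replicate 1 alone stood at 8.17%, close to the stress regions. The gap between the classes was present both over a gene start (5.90% against 29.2% of shared regions) and elsewhere (7.66% against 23.5%).

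The elements of the ABA and dehydration response were less frequent than in shared regions. The ABRE was matched in 41 regions (3.65%), against 7.16% of shared regions and 5.93% of all merged regions. The ABRE core was matched in 321 (28.6%), against 35.0% and 33.1%, the G-box in 83 (7.38%), against 13.5% and 11.7%, and the DRE core in 218 (19.4%), against 22.4% and 21.3%. Regions with control peaks only held the ABRE in 2.62% (6 of 229) and the ABRE core in 21.4%, below the stress regions. They held the G-box in 7.86% and the DRE core in 21%, above the stress regions. Regions missing from control replicate 1 alone held the ABRE in 4.42%, its core in 32.7%, the G-box in 9.64% and the DRE core in 19.7%. The W-box was matched in 197 regions (17.5%), against 16.7% of shared regions and 10.0% of regions with control peaks only. The auxin response element (16.5% against 15.7%), the GCC-box (4.98% against 5.18%), the evening element core (9.70% against 9.43%) and the TATA-like box (42.0% against 41.9%) were as frequent as in shared regions to within 1 percentage point. The telobox was matched in 7.92% against 9.45% of all merged regions and the E2F core in 0.979% against 1.35%. A match says that the letters are present, and not that a factor was bound.

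**Figure D4:**
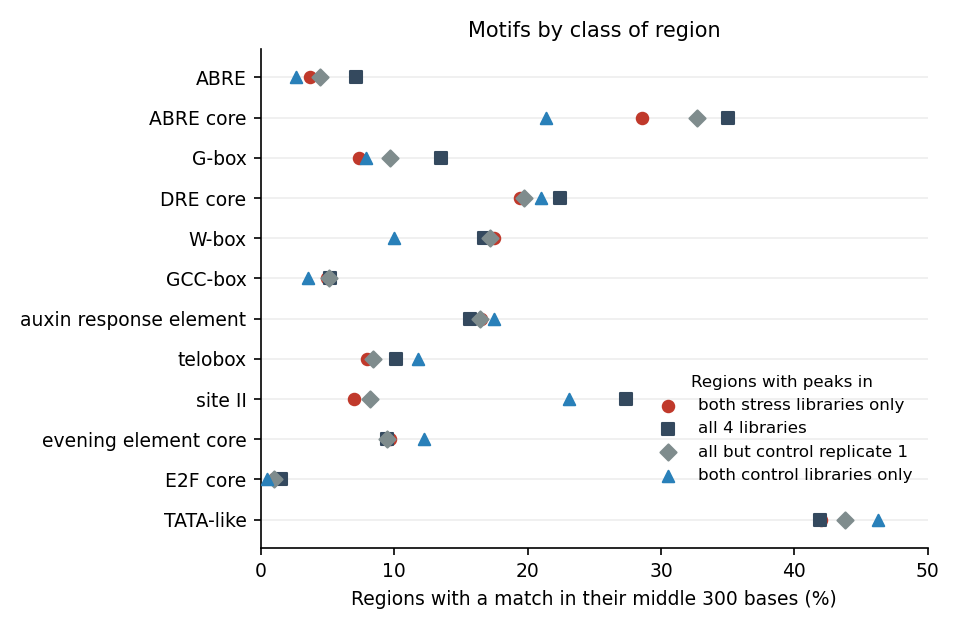
Percentage of regions of each class with at least 1 match to each of 12 motifs in the middle 300 bases, on either strand. Site II separates the classes most, with 6.94% of the 1124 regions and 27.4% of shared regions, and the ABRE stands at 3.65% and 7.16%.

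The strongest regions were ranked by CPM per kb, the level of each stress library divided by the width of its own peak, averaged over both libraries. A peak can be narrower than the merged region. The region of AT3G13310, chr3:4311866-4312667, had 96.9 CPM (6542 cut sites in 3083 nuclei) in stress replicate 1 and 92.3 CPM (6126 cut sites in 2898 nuclei) in stress replicate 2. DnaJ-domain proteins are partners of Hsp70 chaperones in protein folding. Its centre lay at position -638 from the start, it held no exon base, and the nearest control peaks were 1630 and 1601 bases away in control replicates 1 and 2. It stood far above the median peak of both stress libraries.

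RAP2.4, chr1:29362639-29363426, had 81.3 and 81.6 CPM in stress replicates 1 and 2. RAP2.4 encodes an AP2/ERF-type factor of the DREB group linked to drought and light responses. Its region held no exon base and lay 3674 and 3697 bases from the nearest peaks of control replicates 1 and 2. AT2G48030, chr2:19650327-19651143, had 81.9 and 80.5 CPM and lay 8826 and 8803 bases from control peaks. An intergenic region at chr1:6862639-6863231 had 65.2 and 62.9 CPM.

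The other regions of highest level per kb were short. The region of SK20, an SKP1-like gene, spanned 377 bases at chr2:18908312-18908688 and had 48.8 and 48.3 CPM, which is 134 CPM per kb, the highest of all. It lay 31 and 33 bases from the peaks of control replicates 1 and 2, the opposite of the RAP2.4 and AT2G48030 regions. AT5G08680, an ATP synthase alpha/beta family gene, had 45.1 and 43.5 CPM over 379 bases. AT4G33440, which encodes a pectin lyase-like protein, had 50.6 and 48.6 CPM. AT1G53380 had 41.2 and 35.4 CPM over 436 bases that were all exonic.

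The widest regions were mostly exonic, wherever they lay. AT1G08310 (1028 bases, 33.7 and 32.8 CPM), an alpha/beta-hydrolase gene, AT5G14610 (1018 bases, 30.0 and 29.2 CPM), a DEAD box RNA helicase gene, AT4G02920 (1004 bases, 22.7 and 22.7 CPM) and AT1G33680 (1004 bases, 22.6 and 22.3 CPM), a KH domain gene, had regions of which 86.2% to 100% was exonic. That of AT1G08310 lay at the gene start, with its centre at position -190, those of AT5G14610 and AT1G33680 lay inside the gene, and that of AT4G02920 lay just downstream of it. At the low end stood WRKY74 with 8.92 and 9.07 CPM, IDD5, a zinc finger factor gene, with 9.08 and 9.89 CPM, and a region on chromosome 5 at 7690914 to 7691409 without a gene, with 9.30 and 8.82 CPM. Above 50 CPM in the mean of the stress libraries were 36 of the 1124 regions.

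The regions were spread over 1014 genes. Of these, 714 (70.4%) also had another region with a control peak, and 300 had none. Among all annotated genes, 41.1% had a shared region, a narrower class than any region with a control peak. Among gene-start windows, 843 held one of the regions, of which 265 (31.4%) also held a region with a control peak and 578, 468 of them at protein-coding genes, held none. Over all 37899 such windows, 50.1% held a shared region. Neighbouring regions lay a median of 59371 bases apart, and 30 pairs lay within 1 kb of each other. A pair of regions was found at 30 genes and 3 regions at AT3G32040 alone, a terpenoid synthase gene. That gene had 28.9 and 32.0 CPM at its start, 19.2 and 21.0 CPM upstream of it and 17.6 and 17.1 CPM downstream, with the nearest control peaks 9481 bases away or more.

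Genes with a pair of regions, chosen for naming after their values were seen, included regulators of growth. LOG7, which encodes an enzyme that activates cytokinins, had 48.6 and 48.9 CPM at its start and 36.8 and 42.5 CPM in an intron. NAC100, a NAC transcription factor gene, had 24.2 and 23.3 CPM at its start and 35.8 and 37.3 CPM upstream. ASPG1, an aspartic protease gene linked to drought avoidance, had 49.3 and 47.2 CPM at its start and 39.9 and 39.8 CPM in an exon. HDG1, an HD-ZIP class IV gene, had 39.8 and 36.4 CPM in an exon and 22.1 and 22.5 CPM at its start. In each of these regions the stress libraries lay within 6 CPM of each other.

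Few genes of the osmotic and ABA pathway had such a region, as few genes of any kind did. Of 103 pathway genes in 11 lists, 6 (5.83%) had one, against 882 of 27444 protein-coding genes (3.21%), and 65 (63.1%) had a shared region, against 50.5%. None was found at the 14 ABA receptor genes, the 9 PP2C genes, the 5 ABF and ABI5 genes, the 5 DREB2 and CBF genes, the 6 genes of proline synthesis and transport or the 4 ion and osmosensing genes. Shared regions were present at 8 of those ABA receptor genes, 7 of the PP2C genes and all 5 of the ABF and ABI5 genes, so that peaks there were called under both conditions. With few genes of any kind holding a region, none in a list this short is no result about that list. The count of 6 is small. WRKY11 and SnRK2.8 were on a list that the study drew from these samples, which is not independent evidence. WRKY11 came from that list alone, while SnRK2.8 was also on the list of SnRK2 kinases. A share above that of protein-coding genes was not particular to the stress regions. Regions missing from control replicate 1 alone were found at 22 of the 103 pathway genes (21.4%), against 9.98% of protein-coding genes.

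WRKY11, a repressor of basal defence, had 61.1 and 59.5 CPM in stress replicates 1 and 2 in a region without exon bases, chr4:15292301-15292979. PIP2B and PIP1B, aquaporins that carry water across the plasma membrane, had 47.4 and 45.9 CPM at chr2:15614619-15615452 and 41.3 and 38.6 CPM at chr2:18911969-18912655. They were 2 of 13 plasma membrane aquaporin genes. The PIP2B region lay 346 and 367 bases, and the PIP1B region 126 and 131 bases, from peaks of control replicates 1 and 2. That of WRKY11 lay 1739 and 246 bases from them. The PIP1B region lay on the same stretch of chromosome 2 as that of SK20 and was 83.7% exonic, and a region upstream of CYP86A8, a fatty acid hydroxylase gene, followed at chr2:18916066-18916948 with 46.6 and 43.0 CPM. The aquaporin regions thus stood above the median peak of their libraries, unlike most of the 1124.

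KIN1, a cold- and ABA-inducible gene, had 31.3 and 31.2 CPM at chr5:5207701-5208502, 1 to 2 kb upstream of the gene, so that the 41.9% of it that was exonic belonged to other transcripts. SnRK2.8, a kinase activated by osmotic stress, had 29.7 and 30.4 CPM at chr1:29458887-29459720, of which 72.8% was exonic. CYP707A4, an enzyme that breaks down ABA, had 19.0 and 19.0 CPM. The KIN1 and SnRK2.8 regions stood above the class median of 23.2 CPM and that of CYP707A4 below it.

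Of the 283 marker genes of root cell types, 16 (5.65%) had one of the regions, against 3.21% of protein-coding genes and 2.68% of all annotated genes. The endodermis (5 of 33), the columella (4 of 29) and the non-hair epidermis, or atrichoblast (3 of 17), held most. None was found at 28 cortex, 41 xylem and 5 dividing-cell markers. Lists this short differ by a gene or a few, and no test was run over them. At 35 of the 283 markers (12.4%) there was a region missing from control replicate 1 alone, against 9.98% of protein-coding genes.

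The endodermis, which seals the stele with the Casparian strip, is marked here by 5 genes of the study's list. SCR, the GRAS factor that specifies the endodermis and supports the stem cell niche, had 33.4 and 34.9 CPM in a region that was 92.3% exonic, chr3:20069924-20070740. AT2G31730, a bHLH gene, had 43.9 and 44.0 CPM. AT1G61590, a protein kinase gene, had 29.8 and 25.2 CPM in a region without exon bases. PER64, a peroxidase that takes part in lignification of the Casparian strip, had 19.8 and 19.5 CPM. Its region was centred at position -1591 from the PER64 start, in an intron of another gene, and 34.6% of it was exonic. AT2G15300, a receptor-like kinase gene, had 18.9 and 19.3 CPM. The regions of SCR, AT2G31730 and AT1G61590 stood above the class median and those of PER64 and AT2G15300 below it. That of AT1G61590 lay 68 and 108 bases, and that of PER64 119 and 318 bases, from peaks of control replicates 1 and 2. Those of SCR, AT2G31730 and AT2G15300 lay 307 bases or more from any control peak.

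GL2, which represses root hair fate in non-hair cells, had 40.0 and 38.8 CPM at chr1:30036292-30037038, just upstream of the gene. XYL1, an alpha-xylosidase acting on xyloglucan of the cell wall, had 28.3 and 26.6 CPM, and AT2G28710, a zinc finger gene, had 22.7 and 23.5 CPM. Among columella markers ATL63, a RING-type ubiquitin ligase gene, had 36.7 and 37.3 CPM, EFE, which encodes an ethylene-forming ACC oxidase, had 34.9 and 37.2 CPM and AT3G60650 had 23.3 and 22.1 CPM. AT3G46270, a receptor kinase gene on the root hair list, had 26.6 and 25.2 CPM, and AT4G29770, on the pericycle list, had 21.6 and 21.8 CPM. WOX5, the homeobox factor that keeps columella stem cells undifferentiated, had 25.4 and 25.2 CPM at chr3:3525575-3526454, with no exon base. CYCD6;1, a cyclin known for the formative division of the ground tissue and listed by the study under phloem, had 19.1 and 19.8 CPM. In each of these genes the stress libraries were within 4 CPM of each other.

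Genes of 22 families were counted by words in their product names, beside the 3.21% of protein-coding genes. Homeobox genes had the highest share, with 9 of 82 genes. Besides GL2 and WOX5 they were HB17 (41.2 and 43.1 CPM, in an exon), HAT1 (33.8 and 31.1 CPM, in an exon, 77 bases from a control peak), KNAT6 (23.6 and 22.8 CPM, in an intron), ATML1 (22.9 and 23.4 CPM) and WOX14 (23.1 and 22.8 CPM), with KNAT1 and HB51. HDG1 was not counted, since its product name lacks the word. Homeobox factors of these groups direct meristem and epidermal identity. In the class missing from control replicate 1 alone, 18 of the 82 homeobox genes (22%) had a region, against 9.98% of protein-coding genes. No test was run over the families.

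Counted by the same words, other families of transcription factors had lower shares. WRKY genes numbered 6 of 72 (8.33%), with WRKY11 highest and WRKY74 lowest, and NAC genes 5 of 81 (6.17%), with NAC103 at 24.6 and 25.7 CPM. MYB genes numbered 8 of 153 (5.23%). Among them were MYB41, which drives suberin formation, with 37.2 and 35.2 CPM in an exon, MYB61 with 26.2 and 27.1 CPM at its start, 5198 bases from a control peak, and MYB23, an epidermal factor, with 19.8 and 18.3 CPM. ERF and AP2 genes numbered 4 of 77 (5.19%), bHLH genes 5 of 134 (3.73%) and zinc finger genes 13 of 515 (2.52%). The ERF and AP2 words took in REM22 and ABI3, whose product names read AP2/B3-like. They missed RAP2.4, whose product name lacks them, so that share is not one of the whole family. Genes named as Integrase-type DNA-binding proteins, such as AT1G77200, AT4G16750 and AT4G32800, each with a pair of regions, were not counted either. Families of other kinds lay among them, such as genes matched as pentatricopeptide repeat genes, with 16 of 282 (5.67%). One of these matches, SAR3, a suppressor of auxin resistance by its product name, has no such repeat in that name. IAA16, a repressor of auxin signalling, had 51.4 and 51.4 CPM over its start at chr3:1290440-1291005 and was the strongest of 9 among 190 auxin-related genes (4.74%).

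Transporter genes numbered 28 of 584 (4.79%). They included genes for the movement of nutrients that roots take up from soil. OPT6, an oligopeptide transporter, had 52.6 and 49.1 CPM, and AMT1;2, an ammonium transporter, had 31.2 and 31.4 CPM. PHT1;2, a phosphate transporter, had 27.1 and 26.0 CPM, and NRT2:1, a nitrate transporter, had 23.0 and 21.1 CPM. KT1, a potassium transporter by its product name, had 21.3 and 23.1 CPM. The AMT1;2 and PHT1;2 regions, both at the gene start, lay 6064 and 5652 bases from a control peak, whereas that of NRT2:1 lay 154 bases from one. Genes matched as kinases numbered 27 of 541 (4.99%), cell wall genes 17 of 457 (3.72%) and peroxidase genes 4 of 74 (5.41%). The kinase words missed SnRK2.8 and AT1G61590, so that share is not one of all kinase genes. CESA5, a cellulose synthase gene, had 38.7 and 46.8 CPM and EXPA13, an expansin gene, had 37.2 and 36.7 CPM. At the other end stood ribosomal protein genes, 7 of 344 (2.03%), F-box genes, 12 of 652 (1.84%), and transposon-related genes, 1 of 102 (0.98%).

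Counts in the shared regions next to the regions were not used to choose them and were therefore tested between stress and control. Of the 1124 regions, 1024 had a shared region within 5 kb, with a median gap of 1548 bases, and these were 992 distinct neighbours. With edgeR's quasi-likelihood test and Benjamini-Hochberg adjustment over all 18340 shared regions, 9 of the 992 neighbours (0.907%) were higher under stress and 0 lower at an adjusted p under 0.05. Among all shared regions the share was 0.927% higher (170 regions) and 0.218% lower (40 regions), close to the share among the neighbours. At an unadjusted p under 0.05 were 258 neighbours (26.0%), 137 higher and 121 lower, against 23.5% of all shared regions. The median log2 change was -0.0030 among the neighbours and -0.0027 among all shared regions. DESeq2 called 143 neighbours (14.4%), 53 of them lower, against 12.4% of all shared regions. Without control replicate 2 edgeR called 431 (43.4% against 43.3%), without control replicate 1 it called 220 (22.2% against 19.0%), and without stress replicate 1 or 2 it called 1 each. With 2 libraries in a group and no statement in the labels that they came from separate cultures, p-values measure the spread between these libraries alone.

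The 9 neighbours lay beside 12 of the regions. AT4G19950 and AT4G19970 lay on either side of 1 neighbour, chr4:10811260-10812288, at 978 and 4929 bases from it. It had 38.5 and 34.4 CPM in control replicates 1 and 2 and 54.2 and 53.9 CPM in stress replicates 1 and 2. Its log2 change was 0.57 ± 0.07 (SE, n = 2 per group, adjusted p = 0.0325 by edgeR). The call held under all 11 alternatives, with adjusted p of 9.77e-13 to 0.0433. The regions themselves had 23.1 and 23.4 CPM at AT4G19950 and 22.9 and 24.2 CPM at AT4G19970, a gene for a sugar transferase.

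The neighbour of AT5G04120, a phosphoglycerate mutase family gene, had 54.2 and 60.5 CPM in the control and 75.9 and 77.1 CPM in the stress libraries (log2 change 0.41, edgeR adjusted p = 0.0412), and the region itself had 32.0 and 32.1 CPM. That of AT3G24640, a lyase gene, had 35.6 and 36.6 CPM in the control and 46.5 and 47.9 CPM in the stress libraries (log2 change 0.39, edgeR adjusted p = 0.0412). Near AT4G08555 the neighbour had 36.0 and 36.7 CPM against 49.1 and 47.9 CPM (log2 change 0.42, edgeR adjusted p = 0.0389). Near AT4G08570, a heavy metal transport family gene, it had 31.9 and 34.8 CPM against 44.9 and 44.5 CPM (log2 change 0.42, edgeR adjusted p = 0.0443). These neighbours were named because they passed the test, so stress levels above control levels are part of that choice and add no support. None of the 4 passed without stress replicate 1 (adjusted p 0.0876 to 0.219) or without stress replicate 2 (0.129 to 0.248), although the log2 changes stayed at 0.37 to 0.44. With library totals as the scaling, those of AT5G04120, AT4G08570 and AT3G24640 missed the threshold (adjusted p 0.0539, 0.0537 and 0.0523) at log2 changes of 0.42, 0.42 and 0.39, and 2 of the 992 neighbours passed in all. That of AT5G04120 fell to a log2 change of 0.14 (adjusted p = 0.122) with peak width as an offset.

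Nuclei were clustered on shared regions alone, so that the 1124 regions played no part in the clusters. The 13 clusters with at least 50 nuclei in every library were numbered by size and left unnamed. One region (0.089%) reached 4 times the level of the other nuclei in the same cluster of both stress libraries, against 0.654% of shared regions. It was that of AT2G00500, with 119 CPM in cluster 5 and 15.4 CPM elsewhere in stress replicate 1 and 126 CPM against 15.2 CPM in stress replicate 2, and it was the region that matched an organelle genome. Its mean level rose from 21.3 to 32.1 CPM, 1.51 times, when all barcodes were counted in place of called nuclei. Of the 120 shared regions at that level, 119 matched an organelle genome too, so organelle-like sequence made up nearly all of this class.

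At 2 times the level, 62 regions (5.52%) were concentrated in 1 cluster, against 1.93% of shared regions and 3.83% of regions missing from control replicate 1 alone. Most were highest in cluster 7 (20 regions), cluster 3 (16) or cluster 6 (11). The same cluster ranked highest in both stress libraries for 34.9% of the regions, against 31.8% and 32.7% in the other classes. Regions of low level have fewer counts per cluster and wider scatter in such ratios, and the part of this in the shares was not tested.

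Apart from AT2G00500, the regions most concentrated in a cluster had about 3 times the level of the other nuclei. AT1G48750, a lipid transfer protein gene, had 45.8 CPM in cluster 4 and 15.2 CPM elsewhere in stress replicate 1, and 53.7 CPM against 15.0 CPM in stress replicate 2. AT5G63230, a gene for a carbohydrate-binding X8 protein, had 37.3 against 11.6 CPM and 40.2 against 11.5 CPM in cluster 7. SFC, an ARF GTPase-activating protein known for vein patterning, had 31.2 against 11.02 CPM and 34.7 against 11.2 CPM in cluster 3. AT1G51870, a protein kinase gene, had ratios of 3.42 and 2.80 in cluster 3. AT3G45080 had ratios of 3.11 and 2.88 in cluster 7. AT1G48670, a GH3 family gene of auxin conjugation, had ratios of 2.70 and 3.16 in cluster 6. AT1G64700 had 73.0 against 20.8 CPM in cluster 11 of stress replicate 1 and 35.1 against 11.8 CPM in stress replicate 2. Its ratio was similar in both libraries although its level was not.

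Among the listed genes, AT1G61590 of the endodermis list had the highest ratios, 2.89 and 2.45, followed by CYCD6;1 with 2.31 and 1.94, WOX5 with 1.92 and 2.20, AT3G46270 with 1.86 and 2.22 and XYL1 with 2.11 and 1.83. The strongest regions were spread over the clusters: AT3G13310 had ratios of 1.16 and 1.23, RAP2.4 1.26 and 1.26, and WRKY11 1.17 and 1.16.

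Summed over the 1124 regions, the level varied little between clusters. It was highest in cluster 6, with 31931 and 31814 CPM in stress replicates 1 and 2, and lowest in cluster 5, with 26152 and 25591 CPM. The nuclei were not divided among clusters alike: cluster 6 held 4.63% and 6.60% of the nuclei of control replicates 1 and 2 and 9.98% and 9.76% of those of stress replicates 1 and 2. Cluster 3 held 5.06% and 8.79% of the control nuclei and 13.3% and 13.8% of the stress nuclei, and cluster 7 held 3.71% and 6.80% against 9.33% and 9.31%. Both stress libraries lay above both control libraries in these 3 clusters, and the control libraries differed from each other. Most clusters were split by group in this way. Cluster 11 was also higher in both stress libraries, and clusters 1, 2, 8, 9 and 12 were lower in both. Only in clusters 4, 5, 10 and 14 did the groups overlap. The part of these shares in which regions had a peak in the stress libraries only was not tested.

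**Figure D5:**
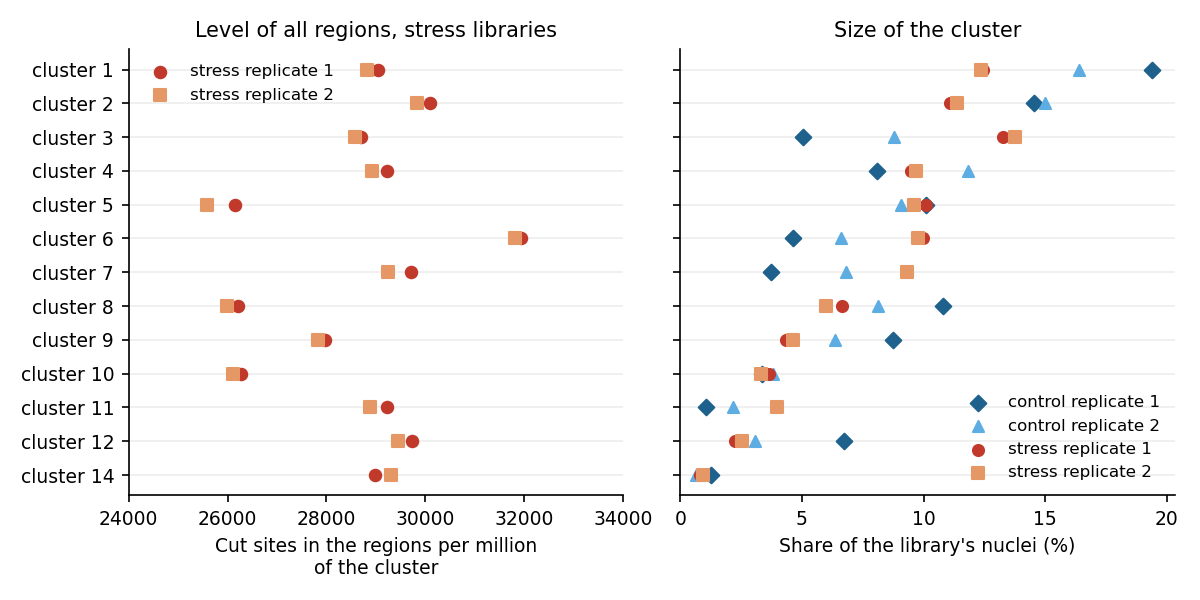
Left, summed level of the 1124 regions in each cluster in stress replicates 1 and 2, in CPM of that cluster on an axis that does not begin at 0. Right, the percentage of the nuclei of each of the 4 libraries in that cluster. Cluster 6 has the highest sums, 31931 and 31814 CPM, and holds 4.63% and 6.60% of control nuclei and 9.98% and 9.76% of stress nuclei.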

How the data were processed

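Control and stress libraries (2 each) were grouped by their labels. The authors deposited peak positions and raw counts of cut sites per nucleus and peak, made per library with Cell Ranger ARC 2.0.2 on TAIR10. Seurat 4.3.0 and Signac 1.7.0 are also listed in the submitters' processing notes. Positions and sequences were read from RefSeq TAIR10.1.

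Called nuclei had 1000 to 100000 ATAC and 1000 to 25000 RNA counts. No doublet caller was run. The study's further filters on nucleosome signal and on enrichment at gene starts were not applied, and the study kept fewer nuclei. Counts were summed per library and region and divided by the library total of called nuclei in peaks (CPM). A region was named after the closest gene start, counting genes whose transcript or 2 kb upstream it touched. Motifs were searched in the middle 300 bases. Organelle and repeated copies were found with blastn 2.17.0 (identity of at least 95% over 50% of the region). Shared regions were tested with edgeR 4.0.16 (TMM, quasi-likelihood, two-sided, Benjamini-Hochberg adjustment) in R 4.3.3, after a check on simulated data, with DESeq2 1.42.0 as the alternative. Nuclei were clustered on shared regions (TF-IDF, SVD components 2 to 30, leidenalg 0.10.2 at resolution 1).

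The regions and gene lists were chosen with earlier results of these data known. The genes named were the 8 regions with the highest CPM per kb (organelle and many-copy matches left out), the 4 widest, the 20 listed genes with the highest CPM, the 8 most concentrated in a cluster with at least 50 counts there, the 6 whose neighbour had the smallest adjusted p under 0.05 and the 3 lowest. CYP707A4, the family examples, the genes with a pair of regions and those at the edge of the rule were named after their values were seen. Alternatives changed the merging, the gene-start window, the scaling, the test and the libraries.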

Additional observations from a re-analysis of the deposited data

How the results depend on the processing

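The number of regions, 1124, became 1136 when peaks had to overlap by 100 bases, 950 when peaks up to 200 bases apart were merged and 812 when peaks needed 20 CPM, and leaving out 1 library gave 1341 to 4653. The share at a gene start, 62.46%, was 40.75% for the start itself, 77.05% with 2 kb upstream and 55.6% for protein-coding genes alone, and leaving out 1 library gave 58.95% to 67.48%. The median width of 830.5 bases was 795 for the narrower stress peak, 852 without regions within 1 kb of a control peak and 797 to 840 without 1 library. The median GC content of 34.52% was 34.67% in the middle 300 bases and also without regions near a control peak, and 33.97% to 34.47% without 1 library. The median level of 23.21 CPM was 23.09 with all barcodes, 23.29 when the top 5% of nuclei by ATAC counts were left out, 28.35 when scaled by shared regions, 24.43 for fragments, 22.69 without regions near a control peak and 23.37 to 23.41 without 1 library. Some motif was matched in 83.63% of the middle windows and in 97.78% of whole regions. One region was concentrated in a cluster at 4 times and 62 at 2 times.

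Of the shared regions, 210 passed the edgeR test. Library totals gave 59, leaving out the 5% of nuclei with the highest counts 106, peak width as an offset 425, DESeq2 2270 and leaving out 1 library 36 to 7947. Among the neighbours, 9 passed, and the same alternatives gave 2, 5, 36, 143 and 1 to 431, with 3 for the nearest shared region of the same gene. Replicate numbers were not found to pair the libraries, since the deviations of control and stress replicate 1 had a correlation of -0.01 over 18340 regions. With the replicate block, 865 shared regions and 49 neighbours (4.94% against 4.72%) passed. For the 6 regions named by their neighbour, 66 alternatives were run. Of these, 53 stayed past the threshold, 13 did not and 0 changed direction, with log2 changes of 0.14 to 0.65. The neighbour beside both AT4G19950 and AT4G19970 was counted under each gene and passed each time. The 66 and 53 are therefore not counts over distinct neighbours.

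Depth limits what can be said of absence: control replicate 1 had 47853119 cut sites against 71738704 to 75473335 in the others. Without control counts in the 1124 regions, a closed region and an uncalled open one cannot be told apart there.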
